A study of Mus musculus with 2 samples.

Results

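The DEAD and DEAH box RNA helicases were described in the nucleoplasmic RNA of mouse macrophages, as the 49 genes whose symbol is Ddx or Dhx followed by a number, with or without a closing a or b, and that have a protein-coding transcript. They made up 49 of 21901 genes with a protein-coding transcript and comprised 34 Ddx and 15 Dhx genes. A further 2 symbols that match the pattern were left out by the rule and are not described. The choice used symbols and not measured values. All 49 genes were present in the gene tables.

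Total RNA depleted of ribosomal RNA was sequenced from the nucleoplasmic fraction of bone-marrow-derived macrophages, that is, cells differentiated in culture from marrow precursors. The cells came from C57BL/6J mice and had received 100 ng/ml lipid A, the TLR4-activating part of bacterial lipopolysaccharide, for 90 min. There was 1 group with 2 replicates, which the labels call biological. Both carry 1 donor entry, and their spread may be technical in part. Replicate 1 started from 1 µg and replicate 2 from 500 ng of RNA. No unstimulated and no cytoplasmic library was analysed here, so the values are levels within this fraction at 1 time point, and no p-value is given. In bulk RNA, fewer cells of a type and less RNA per cell cannot be told apart.

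These enzymes share a helicase core of paired RecA-like domains that binds ATP and RNA. DEAD box proteins pry apart short duplexes locally, whereas DEAH box proteins move along a single strand and pull on it from a distance. In the nucleus they drive rearrangements of the spliceosome, package mRNA for export and remodel precursors of the ribosome. Other members act in the cytoplasm on translation and decay, in mitochondria, or in germ cells.

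The families take their names from motif II of the core, which coordinates ATP hydrolysis. A stretch encoding aspartate, glutamate, any residue, and aspartate or histidine was searched 60 to 180 codons downstream of the ATP-binding loop, taken as glycine, any residue, glycine, lysine, and threonine or serine. It was found in the longest annotated reading frame of 44 of 49 genes. The fourth codon encoded aspartate in 30 genes, all of them Ddx, and histidine in 14, all of them Dhx. The third codon varied: it encoded alanine in 24 Ddx and 8 Dhx genes, cysteine in Ddx39b and Ddx39, serine in Ddx52, valine in Ddx50, Ddx21, Ddx28, Dhx30, Dhx57, Dhx34 and Dhx29, and isoleucine in Dhx9 and Dhx36. The letters were not found in this window in Ddx24, Ddx60, Ddx1, Ddx11 and Dhx32. The windows below are shown because they name the families and because paralogue pairs share their departures from the name. They are 30 coding bases each, 5′ to 3′ on the sense strand, from the GENCODE M21 transcripts (assembly mm10), with the codons of motif II in capitals.
Ddx5: cttgtccttGATGAAGCTGATaggatgctt
Ddx17: cttgtgttgGATGAGGCTGACcggatgctt
Ddx39b: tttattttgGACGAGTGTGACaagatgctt
Ddx39: tttgtgctaGATGAATGTGACaagatgctg
Ddx50: gttgtgcttGATGAAGTAGATcaaatgtta
Ddx21: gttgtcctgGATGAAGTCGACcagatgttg
Ddx19b: tttgttctgGACGAGGCTGATgtgatgata
Dhx9: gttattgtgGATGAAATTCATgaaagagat
Dhx36: attgtacttGATGAAATTCATgaaaggaat
Dhx16: gtgatggtgGATGAAGCTCACgagcggacc
Dhx8: attatgttgGATGAAGCACACgagaggacc
Dhx15: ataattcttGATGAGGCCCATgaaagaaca

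Each printed window lay within 1 coding exon. On the minus strand these were chr11:106785184-106785213 in exon 7 of Ddx5, chr15:79538866-79538895 in exon 7 of Ddx17, chr10:62640502-62640531 in exon 6 of Ddx50, chr10:62591872-62591901 in exon 6 of Ddx21, chr8:111011326-111011355 in exon 8 of Ddx19b, chr1:153468880-153468909 in exon 14 of Dhx9, chr3:62493845-62493874 in exon 8 of Dhx36 and chr5:52171487-52171516 in exon 4 of Dhx15. On the plus strand they were chr17:35247081-35247110 in exon 5 of Ddx39b, chr8:83721101-83721130 in exon 5 of Ddx39, chr17:35885499-35885528 in exon 10 of Dhx16 and chr11:101752131-101752160 in exon 14 of Dhx8. The window of Ddx19a was identical to that of Ddx19b in 30 of 30 bases. Ddx5 and Ddx17 shared 24 bases of 30, as did Ddx21 and Ddx50. Dhx8 and Dhx16 shared 25, and Ddx39 and Ddx39b 23.

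The libraries held 22669533 and 14939143 estimated counts in replicates 1 and 2, of which helicase genes took 82685 (0.365%) and 51561 (0.345%). The median helicase gene had 379 and 257 counts. TPM is a relative transcript abundance scaled by transcript length, and its fixed total covers all features, small RNAs included. It ran higher in replicate 2 by a median of 0.38 on the log2 scale over 8559 protein-coding genes that reached 1 TPM in each library, so the libraries were compared through scaled counts. Macrophage markers were at 10 TPM or more in 9 of 9 genes, while 1 of 22 markers of other blood and stromal cell types reached 1 TPM in both libraries (S100a9, mean 1.565 TPM). All T cell and erythroid markers were listed at 0 TPM. Mitochondrially encoded genes took 4.92% and 12.1% of counts.

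Most of the helicase genes were present in this fraction. At 1 TPM or more in both libraries there were 45 of 49 genes, beside 38.9% of 22015 protein-coding genes. At 5 TPM there were 22 helicase genes, at 10 TPM 11 and at 100 TPM 2. At these cutoffs there were 4918, 3213 and 268 of the 22015 protein-coding genes, 8559 of which reached 1 TPM in both libraries. The median helicase gene was at 4.67 TPM in replicate 1 and 6.43 TPM in replicate 2, and the median of the means was 5.75 TPM. Protein-coding genes that reached 1 TPM in each library had a median of 6.62 and 8.67 TPM. The 45 helicase genes held to the same cutoff had medians of 4.86 and 6.83 TPM. Nearly the whole family was thus detected, and its median lay below that of detected protein-coding genes in each library. The 15 Dhx genes had medians of 4.02 and 5.07 TPM and the 34 Ddx genes 4.765 and 6.61 TPM.

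**Figure D1:**
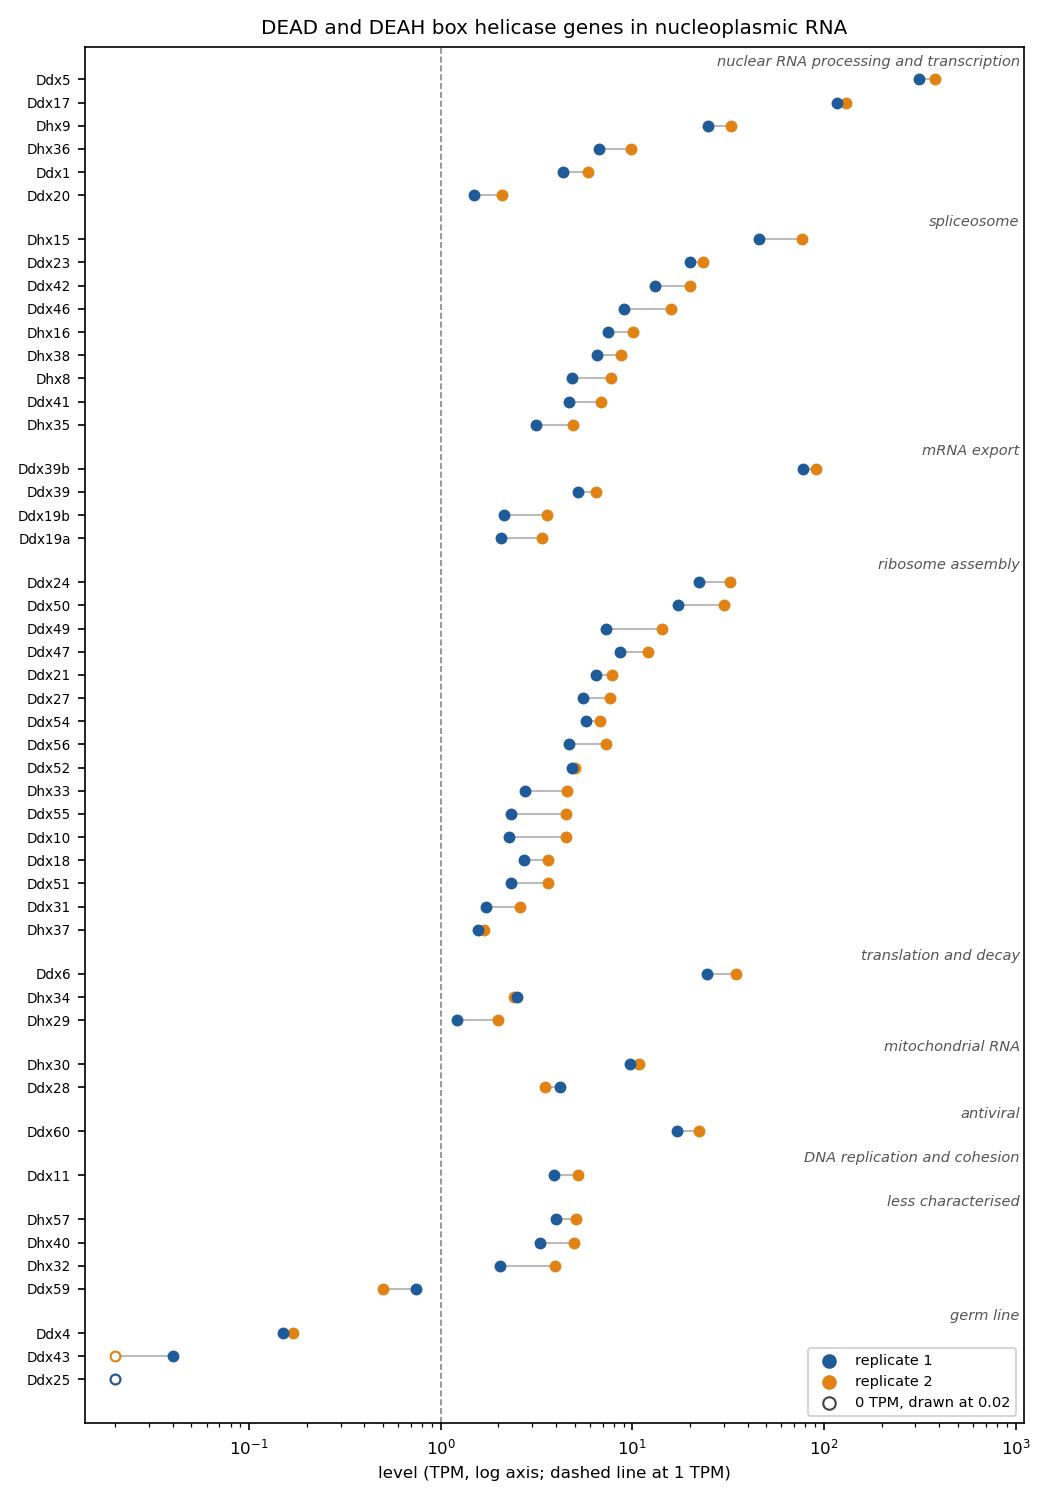
Level of each of the 49 helicase genes in TPM (horizontal log axis) in replicate 1 (blue) and replicate 2 (orange), grouped by role; the grey line joins both libraries and the dashed line marks 1 TPM. Ddx5 and Ddx17 stand above 100 TPM in both libraries, and Ddx59 and the germ line genes Ddx4, Ddx43 and Ddx25 lie below 1 TPM.

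Among groups of more than 1 gene, that of nuclear RNA processing and transcription had the highest median, 18.6 TPM, and all 6 of its 6 genes reached 1 TPM. Ddx5, a transcriptional coactivator and splicing regulator also known as p68, was the highest of the family at 313.58 TPM in replicate 1 and 379.82 TPM in replicate 2 (346.7 ± 46.8, SD, n = 2), rank 48 among protein-coding genes. Its close paralogue Ddx17, or p72, followed at 117.21 and 131.04 TPM (rank 238). In protein-coding transcripts alone the order of this pair turned between the libraries. Ddx5 was there at 84.65 and 148.40 TPM, and all Ddx17 transcripts are of this type. The second quantification, described below, gave 51.22 and 108.41 TPM for Ddx5 and 74.01 and 80.81 TPM for Ddx17 in such transcripts. Dhx9, RNA helicase A, which binds double-stranded RNA and bridges factors to RNA polymerase II, stood at 24.91 and 32.88 TPM. These were the first, second and sixth members of the family by mean level. Unless stated otherwise, levels and ranks are those of the first quantification over all transcripts of a gene. Dhx36, which unwinds G-quadruplexes, was at 6.73 and 9.86 TPM. Ddx1, a subunit of the tRNA ligase complex, was at 4.35 and 5.85 TPM. Ddx20, or Gemin3, of the SMN complex that assembles spliceosomal snRNPs, was the lowest of the group at 1.49 and 2.09 TPM. The group therefore spanned nearly the whole range of detected helicases. Of 7 partners of Ddx20 in the SMN complex, 2 reached 1 TPM in both libraries (Smn1 at 4.52 and 6.23 TPM, Gemin7 at 4.02 and 2.92 TPM).

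All 9 spliceosomal helicases were at 1 TPM or more, with a median of 8.74 TPM. In the first quantification Dhx15, which takes the spliceosome apart after splicing, led them at 45.93 and 76.43 TPM. Ddx23, which hands the 5′ splice site from U1 to U6, was at 19.97 and 23.43 TPM. Ddx42, associated with the U2 snRNP, was at 13.19 and 19.96 TPM. The U2 recruitment factor Ddx46 followed at 9.09 and 15.98 TPM. Over all transcripts in this quantification, the helicases of the early steps thus stood with Dhx15 at the top of the group. In protein-coding transcripts alone Ddx46 was at 4.30 and 8.26 TPM. In replicate 1 that was below Dhx16 (5.37 TPM) and Dhx38 (5.30 TPM), and in replicate 2 above them (6.29 and 5.99 TPM). Dhx16, Dhx38 and Dhx8 act in this order at the first step, the second step and the release of mRNA. Over all transcripts they were at 7.43, 6.56 and 4.85 TPM in replicate 1 and at 10.05, 8.77 and 7.77 TPM in replicate 2. The order of these 3 was the same in both libraries. TPM ran higher in replicate 2 over protein-coding genes, so the gaps were not judged against its change between libraries. In scaled counts the log2 ratios of the 3 were -0.15, -0.23 and 0.22. In the second quantification, described below, Dhx8 was above Dhx38, at 5.15 against 5.08 TPM and 7.37 against 6.58 TPM. Dhx16 was there below Dhx15 in replicate 1, at 22.85 against 31.88 TPM, and above it in replicate 2, at 94.99 TPM. Ddx41, found in catalytic spliceosomes, was at 4.67 and 6.83 TPM in the first quantification. Dhx35, of the same stage, was the lowest there at 3.15 and 4.93 TPM. In the second quantification Dhx35 was at 11.00 and 14.66 TPM. That was above Ddx42 (10.70 and 14.16 TPM) and Ddx46 (6.75 and 11.32 TPM). Among 14 partner proteins of these helicases, such as Prpf8 and the activator Gpkow, all 14 reached 1 TPM in both libraries, with a median of 8.01 TPM.

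The 4 export helicases were all detected and were uneven. Ddx39b, or UAP56, the ATPase that loads the TREX complex onto mRNA, was the third of the family at 77.93 and 90.37 TPM. In the second quantification its mean, 51.2 TPM, was below that of Dhx16, 58.9 TPM. The paralogue of Ddx39b, Ddx39, was at 5.18 and 6.43 TPM, so that Ddx39b was 15.0 and 14.1 times as high. Ddx19b and Ddx19a, which release mRNA proteins on the outer face of the nuclear pore, were at 2.13 and 2.07 TPM in replicate 1 and at 3.60 and 3.39 TPM in replicate 2. Their ratio was 1.03 and 1.06, within the spread between libraries. Of the TREX and export factors 11 of 13 reached 1 TPM in each library, and of the exon junction complex 6 of 6.

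The ribosome assembly group was the largest, with 16 of 16 genes at 1 TPM or more and a median of 5.46 TPM. Ddx24, a large-subunit factor, was its highest at 22.37 and 32.18 TPM. Ddx50 and Ddx21, related nucleolar helicases, stood at 17.25 and 6.49 TPM in replicate 1 and at 30.25 and 7.82 TPM in replicate 2. Ddx50 was thus 2.66 and 3.87 times as high as Ddx21 over all transcripts of each gene. The gap was smaller in protein-coding transcripts alone. These were at 5.17 and 6.22 TPM for Ddx50 and at 3.40 and 5.53 TPM for Ddx21. Among the small-subunit factors, Ddx49 was at 7.32 and 14.27 TPM, Ddx47 at 8.67 and 12.13 TPM and Ddx52 at 4.86 and 5.03 TPM. Ddx10 of the same pathway was at 2.26 and 4.51 TPM. Ddx18 of the large-subunit pathway was at 2.71 and 3.64 TPM, so the order of these paired genes turned between the libraries. Dhx37, which frees the U3 snoRNA from the small-subunit precursor, was the lowest of the group at 1.56 and 1.68 TPM. The 7 remaining genes, Ddx27, Ddx54, Ddx56, Dhx33, Ddx55, Ddx51 and Ddx31, lay between 1.72 and 7.62 TPM in both libraries. Of 16 ribosome assembly factors that are not helicases, 13 reached 1 TPM in both libraries, with a median of 4.87 TPM.

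Among members with mainly cytoplasmic roles, Ddx6 was the fifth of the family at 24.67 and 34.95 TPM. It represses mRNA and promotes its decapping in P bodies. Dhx34, a factor of nonsense-mediated decay, was at 2.51 and 2.41 TPM. Dhx29, which helps the small ribosomal subunit scan structured leaders, was at 1.21 and 1.99 TPM and had the lowest mean of the detected members, close to that of Dhx37 (1.60 against 1.62 TPM). Of 10 decapping and P-body factors, 9 reached 1 TPM in both libraries, with a median of 15.6 TPM. Dhx30 and Ddx28, which take part in assembly of the mitochondrial ribosome, were at 9.72 and 4.20 TPM in replicate 1 and at 10.78 and 3.50 TPM in replicate 2. Ddx60, an interferon-induced antiviral factor, was at 17.03 and 22.23 TPM and completed the 10 highest members. In the second quantification its mean, 35.4 TPM, was above those of Dhx9 (24.3 TPM) and Ddx6 (21.5 TPM). Ddx11, a DNA helicase of sister chromatid cohesion, was at 3.89 and 5.19 TPM. The less characterised Dhx57, Dhx40 and Dhx32 lay between 2.05 and 5.07 TPM.

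The members below 1 TPM were mostly germ line genes. Ddx59, which is less characterised, was at 0.74 and 0.50 TPM with 39 and 17 counts. Ddx4, the germ cell marker Vasa, was at 0.15 and 0.17 TPM with 14 and 8 counts. Ddx43, expressed mainly in testis and tumours, was at 0.04 and 0 TPM, with 3 counts in replicate 1 and 0 in replicate 2. Ddx25, a testis helicase, had 0 counts in both, and a count of 0 allows up to 3 counts, a CPM of 0.132 in replicate 1 and 0.201 in replicate 2. Such limits cover counting error only. Of 14 related helicases outside the symbol rule, 12 reached 1 TPM in both libraries, led by mean level by the translation initiation helicases Eif4a1, at 96.00 and 107.20 TPM, and Eif4a2, at 75.94 and 107.60 TPM.

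Among the 45 members whose mean level was at least 1 TPM, the median log2 ratio of replicate 2 over replicate 1 in TMM-scaled counts was 0.04, with a range of -0.69 to 0.55, beside a median of -0.02 over 9005 protein-coding genes. The ratio was above 0 in 28 members (62.2%) and below 0 in 17, beside 47.7% of protein-coding genes above 0. The central 50% of the members lay between -0.13 and 0.25 and that of all these genes between -0.27 and 0.20. With 1 library on each side there is no test of these differences. Beyond 1.5-fold either way there was 1 member of 45, beside 12.5% of all genes tested. None was higher in replicate 2 by 1.5-fold (background 3.25%) and 1 was lower (background 9.21%). The count depended on the measure. From centred TPM it was 2, and from the centred second quantification 5. The log2 ratios of the latter were 1.71 for Dhx16, 0.66 for Ddx27, -0.77 for Ddx60, -0.62 for Ddx28 and -0.61 for Dhx34. The share over all genes was not computed for these other measures. In scaled counts the exception was Ddx28, an intronless gene at chr8:106009621-106011882, with 299 counts in replicate 1 and 124 in replicate 2 and a log2 ratio of -0.69. It had the same direction in TPM, 4.20 against 3.50, and in the second quantification, 2.47 against 2.00 TPM. Dus2, which overlaps it on the opposite strand, had a log2 ratio of 0.24, with 250 and 199 counts. The strand setting of the counting is not given in the sources used here, so reads of such partners cannot be told apart.

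The members nearest the 1.5-fold line on the upper side were Ddx10 (229 and 227 counts, log2 ratio 0.55), Ddx55 (188 and 181 counts, 0.51) and Ddx46 (1380 and 1292 counts, 0.47). Ddx50 and Dhx33 followed at 0.45 and 0.44. Of these 5 genes, picked by their ratios, 4 belong to the ribosome assembly group, which holds 16 of the 45 members compared. The median log2 ratio of that group was 0.18. The spliceosomal group had a median of 0.14 and the nuclear processing group of -0.03. These group medians are all within the central 50% of protein-coding genes. Of the 5 most abundant members, Ddx5, Ddx17 and Ddx39b were at -0.24, -0.32 and -0.18, and Dhx15 and Ddx6 at 0.30 and 0.03. From the centred second quantification the ratio of Ddx5 turned to 0.18, and those of Ddx17 and Ddx39b were -0.21 and -0.24.

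**Figure D2:**
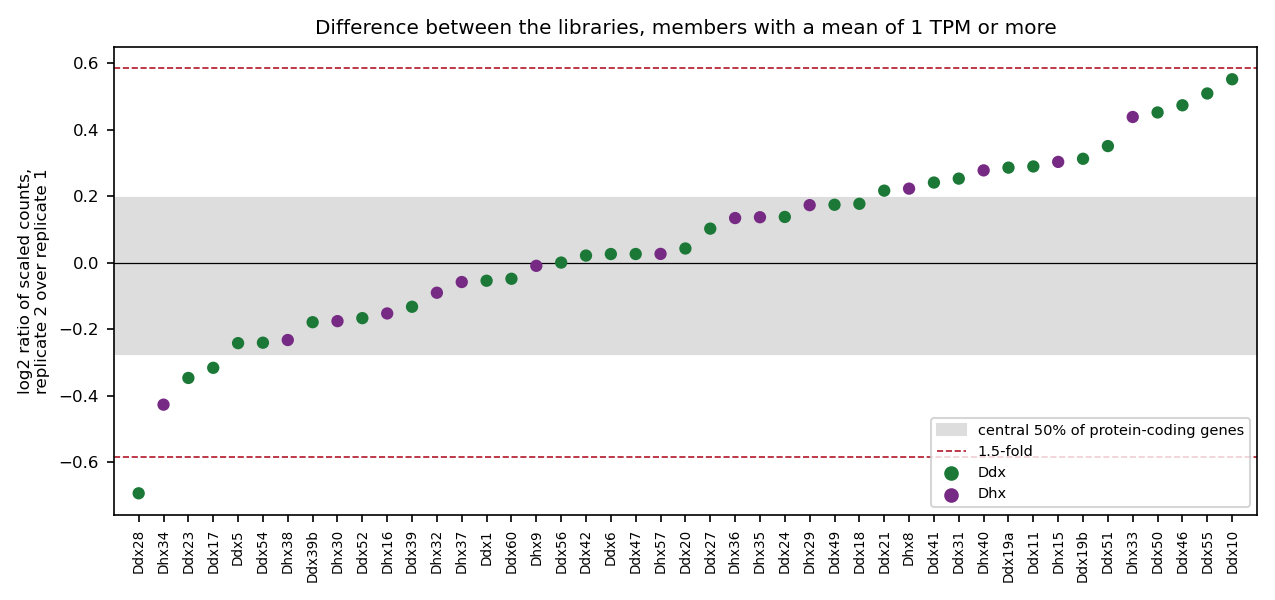
The log2 ratio of scaled counts, replicate 2 over replicate 1, for the 45 helicase genes whose mean reached 1 TPM, in rising order (green Ddx, purple Dhx); the grey band is the central 50% of protein-coding genes and the dashed lines mark 1.5-fold. Ddx28 at -0.69 is the single member past a dashed line, and Ddx10 at 0.55 lies just inside the upper one.

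Nuclear RNA holds transcripts whose introns are not yet or never removed, and the annotation has separate entries for some of these. The percent of gene-level TPM assigned to retained-intron entries was taken for the 37 helicase genes with such an entry and a mean level of at least 1 TPM. The median share was 37.4%, beside 34.6% over 5800 protein-coding genes chosen the same way. A share of 25% or more was found in 26 of 37 genes, beside 65.7% of all such genes, so this count is close to the background. Many of these entries are short fragments, which weigh more in TPM than in reads. As a share of estimated counts the median was 19.5% for the helicases and 21.04% for all such genes.

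The highest share was that of Ddx49, at 82.8% in replicate 1 and 92.5% in replicate 2. Ddx50 followed with 69.3% and 79.4%, and Ddx11 with 73.8% and 67.8%. In estimated counts the shares of Ddx49 were 71.0% and 83.9%, and those of Ddx50 66.2% and 75.02%. For these 2 genes retained-intron transcripts thus held most of the TPM and most of the counts in both libraries. Ddx11 stood at 47.6% and 47.8% of counts and Dhx30 at 49.8% and 50.7%. By the mean over both libraries, 3 of 37 helicase genes were at 50% or more of counts. Over all such genes these were 1154 of 5800. Ddx54 had 54.4% and 64.1% of TPM, Ddx23 53.5% and 62.4%, and Ddx46 52.7% and 48.3%. In estimated counts these 3 genes were at a mean of 46.2%, 42.1% and 43.0%. Homer3 overlaps Ddx49 on the opposite strand at 22.95 and 18.27 TPM, and Gm43579 and Cfap73 overlap Ddx54. The part of these genes in the shares was not tested. Across the family, the 14 members with any overlapping annotated gene had a median share of 44.2% and the 23 without had 26.8%, while over all such genes the medians were 35.2% and 34.0%.

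By role, the median share was 42.1% in 13 ribosome assembly genes, of which 9 were at 25% or more. It was 44.9% in 3 export genes and 34.3% in 8 spliceosomal genes, 7 of the latter at 25% or more. Over all such genes the median was 34.6%, and 65.7% were at 25% or more. The role groups are small, and a difference between them was not tested. Ribosome assembly spanned the whole range, from Ddx49 to Dhx37 at 5.1% and 0%. Between the libraries 29 of 37 shares differed by under 10 percentage points, and this was not counted over all such genes. The 8 others were Ddx50, Dhx38, Ddx21, Ddx56, Ddx39, Ddx1, Ddx55 and Ddx18. The widest gap was that of Ddx1, at 31.5% and 3.9%. It rests on 1 entry of 667 bases, Ddx1-202, with 21.2 and 1.8 estimated counts. As a share of counts it was 5.3% and 0.7%. The share was lower in replicate 2 in 23 of 37 genes, with a median difference of -1.91 points, beside 3003 of 5800 and -0.36 points over all such genes. In the second quantification 18 helicase genes were higher and 19 lower, with a median of -0.51 points. Over all 5800 such genes 3056 were higher there and 2708 lower, with a median of 0.46 points.

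**Figure D3:**
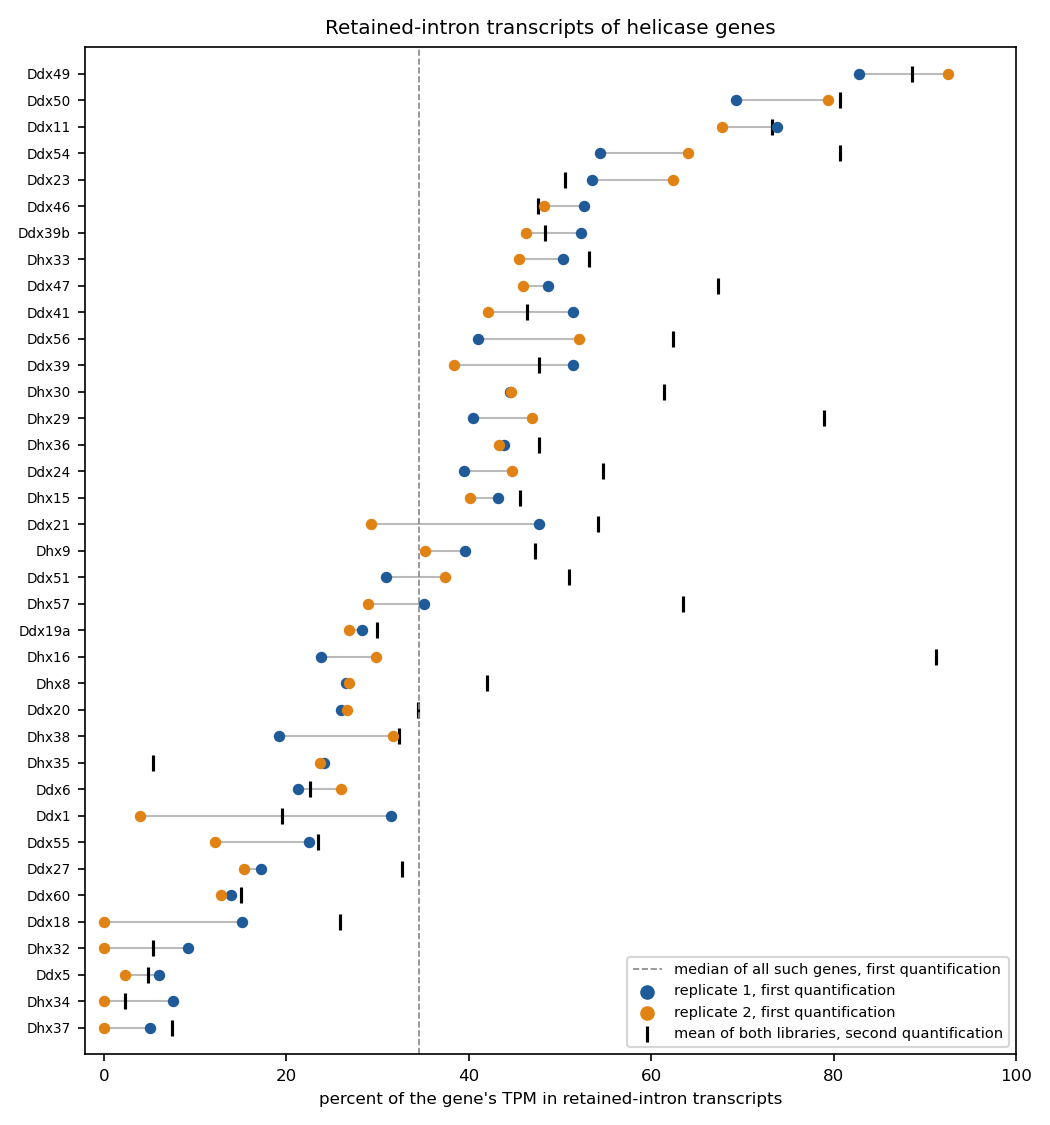
Percent of each gene's TPM in retained-intron transcripts (horizontal axis) for 37 helicase genes, in replicate 1 (blue) and replicate 2 (orange) of the first quantification, with the mean of both libraries in the second quantification as a black tick. Ddx49, Ddx50 and Ddx11 lie highest, the dashed line at 34.6% is the median of all such genes, and Dhx16, Dhx29 and Dhx57 have ticks far to the right of their points.

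The most abundant transcript was not of protein-coding type in 9 of 41 members with several types, beside 27.8% of 7522 such genes. Retained-intron transcripts came first in 6 of them. Ddx39b-204, a retained-intron transcript of the export helicase, was at 40.78 and 41.88 TPM, beside 26.35 and 40.17 TPM for the coding Ddx39b-201. Ddx46-204 was at 4.79 and 7.72 TPM, beside 3.87 and 8.26 TPM for the coding Ddx46-202. Which of these entries came first thus depended on the library for Ddx46. The most abundant transcript was the same in both libraries for 40 of 45 members. This was not counted over all genes.

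The 2 most abundant helicases had leading transcripts that depart from the spliced form at the same exon, a pattern picked out after the values were seen. The leading transcript of Ddx5 was Ddx5-208, of the nonsense-mediated decay type, at 187.48 and 164.95 TPM. The full coding transcript Ddx5-201 was at 82.08 and 139.25 TPM. Ddx5-208 held 59.8% and 43.4% of the gene's TPM, so it came first in both libraries, by 2.28 and 1.18 times. Ddx5-208 keeps the intron after exon 11, chr11:106782694-106783958, 1265 bases, minus strand. The microRNA genes Mir3064 and Gm25994 overlap that intron, Mir3064 at its boundary with the next exon, and were both listed at 0 TPM. Because its type is nonsense-mediated decay, Ddx5-208 does not enter the retained-intron share of Ddx5, which was 6.1% and 2.4%.

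The leading transcript of Ddx17 was Ddx17-202, at 40.35 and 49.49 TPM, 34.4% and 37.8% of the gene's TPM. It does not splice after exon 11 but runs on for 1296 bases into a 4042-base intron, chr15:79531915-79535956, minus strand, and ends there. Its annotated type is protein coding. The other 3 Ddx17 transcripts were at 15.95, 28.58 and 32.33 TPM in replicate 1 and at 13.03, 30.28 and 38.23 TPM in replicate 2. The order of the 4 was the same in both libraries. Exon 11 has 60 bases in both genes, at chr11:106783959-106784018 in Ddx5 and chr15:79535957-79536016 in Ddx17, and is identical at 47 bases (78.3%). The exons are printed below, 5′ to 3′ on the sense strand from the GENCODE M21 transcripts that run on, because the difference between the leading and the spliced transcripts begins at their end. The capitals mark the first 9 bases of the intron.
Ddx5 exon 11: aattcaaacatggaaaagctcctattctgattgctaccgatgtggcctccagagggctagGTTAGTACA
Ddx17 exon 11: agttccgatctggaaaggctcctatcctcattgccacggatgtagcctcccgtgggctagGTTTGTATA

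Of the 31-base words of all Ddx5 transcripts, 21.1% also occurred in transcripts of other genes, mostly in the processed pseudogene Gm12183 (0.95 and 2.98 TPM). In Ddx5-208 it was 33.4%. These are shares of sequence and not of reads. Gm12183 held 53.7 and 84.2 counts, beside 32432 and 18484 for Ddx5. How reads of the shared words were split was not tested. Sharing was highest for Ddx18, at 65.5%, mostly with the pseudogene Gm16433 (0.02 and 0.08 TPM). Ddx19a shared 32.0% of its words, all with Ddx19b, and Ddx19b 14.3%. The split of reads between the latter pair is therefore uncertain. The other 45 members were below 10%, with a family median of 0.75%, and 16 members shared none.

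**Figure D4:**
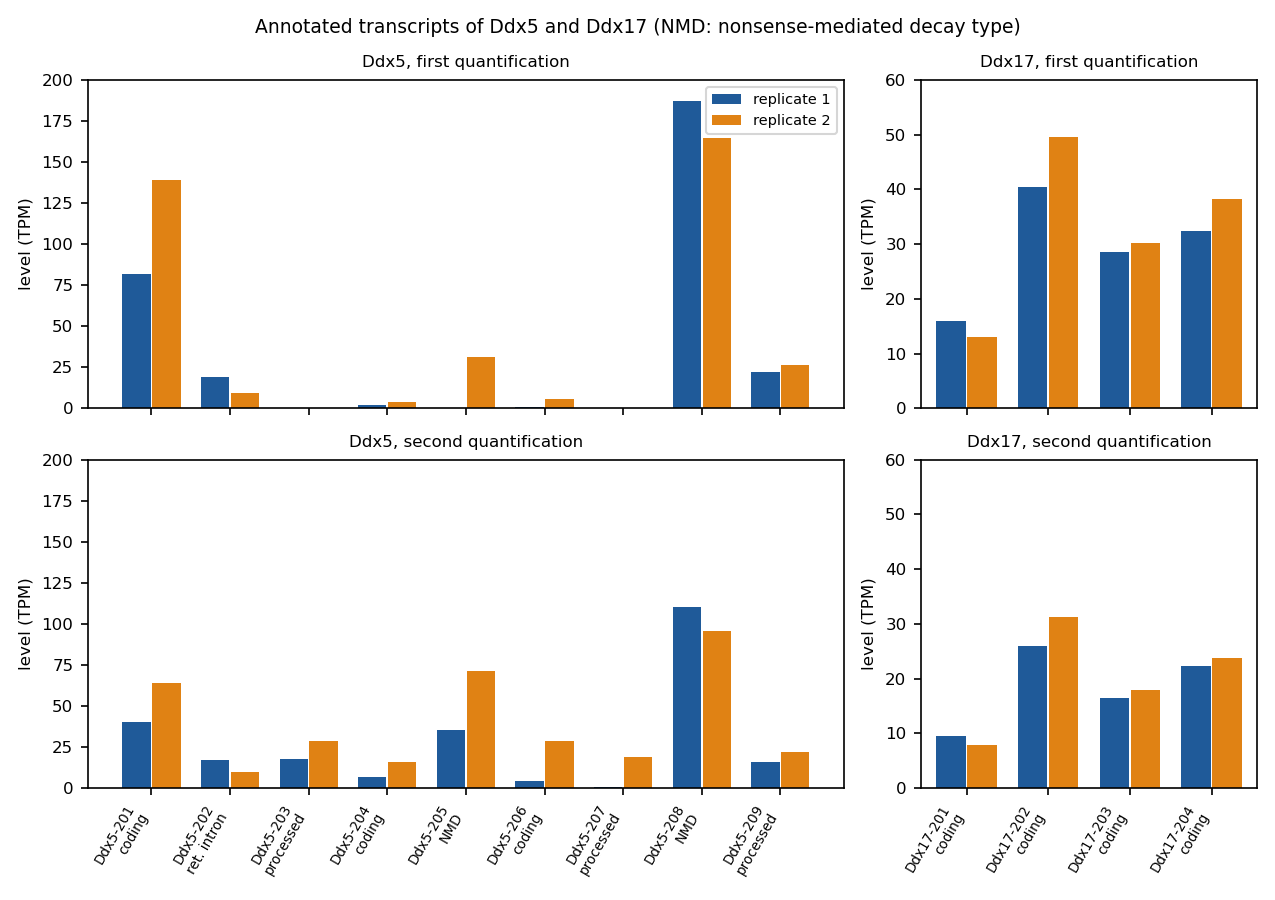
Level in TPM (vertical axis) of each annotated transcript of Ddx5 (left) and Ddx17 (right) in replicate 1 (blue) and replicate 2 (orange), from the first quantification (top) and the second (bottom), with the annotated type under each name. Ddx5-208 and Ddx17-202 are the tallest bars of their gene in both libraries and both quantifications.

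A second quantification, which the authors made directly from the reads, gave the same 45 of 49 members at 1 TPM or more and a median of 5.47 TPM. After centring on the median of detected protein-coding genes, 38 of 45 members were within 1.5-fold of the first quantification in both libraries. The share of all genes within 1.5-fold was not computed. Beyond 2-fold in both libraries were 2 of 45, Dhx16 and Dhx35, beside 6.08% of 8559 genes. Dhx16 was at 7.43 and 10.05 TPM in the first quantification and at 22.85 and 94.99 TPM in the second. The gap lay in Dhx16-202, an 825-base retained-intron transcript at chr17:35887679-35889594, which was at 0.86 and 0.94 TPM in the first and at 18.3 and 89.6 TPM in the second. Of its 31-base words 10.3% occurred in other genes, 1452 in number. The full coding transcript Dhx16-201 was at 4.86 and 5.44 TPM in the first and at 2.72 and 3.30 TPM in the second. These transcripts, those of Ddx60 below and the retained-intron transcript of Dhx29 were picked out after the values were seen.

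For Dhx35, the 328-base Dhx35-203 was listed at 0 TPM in the first quantification and stood at 6.66 and 9.82 TPM in the second. For Ddx60, the 605-base Ddx60-206 at the 5′ end of the gene was at 1.90 and 3.54 TPM in the first and at 17.2 and 11.5 TPM in the second. The centred log2 ratio of Ddx60 between the libraries was 0.01 in the first quantification and -0.77 in the second, so its difference between libraries depends on the quantification. In the second quantification the most abundant transcript was under 1000 bases in 13 members, against 1 in the first. The share of all genes with such a short leading transcript was not computed. In the second quantification the leading transcript was not of protein-coding type in 17 of 41 members, beside 49.1% of all such genes. The most abundant transcript was the same in both quantifications for 27 of 45 members by the mean over both libraries. The share over all genes was not computed. Ddx5-208, Ddx17-202 and Ddx39b-204 were among those that stayed the same. In replicate 2 of the second quantification, however, Ddx39b-204 was at 23.6 TPM and the coding Ddx39b-201 at 23.9 TPM.

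**Figure D5:**
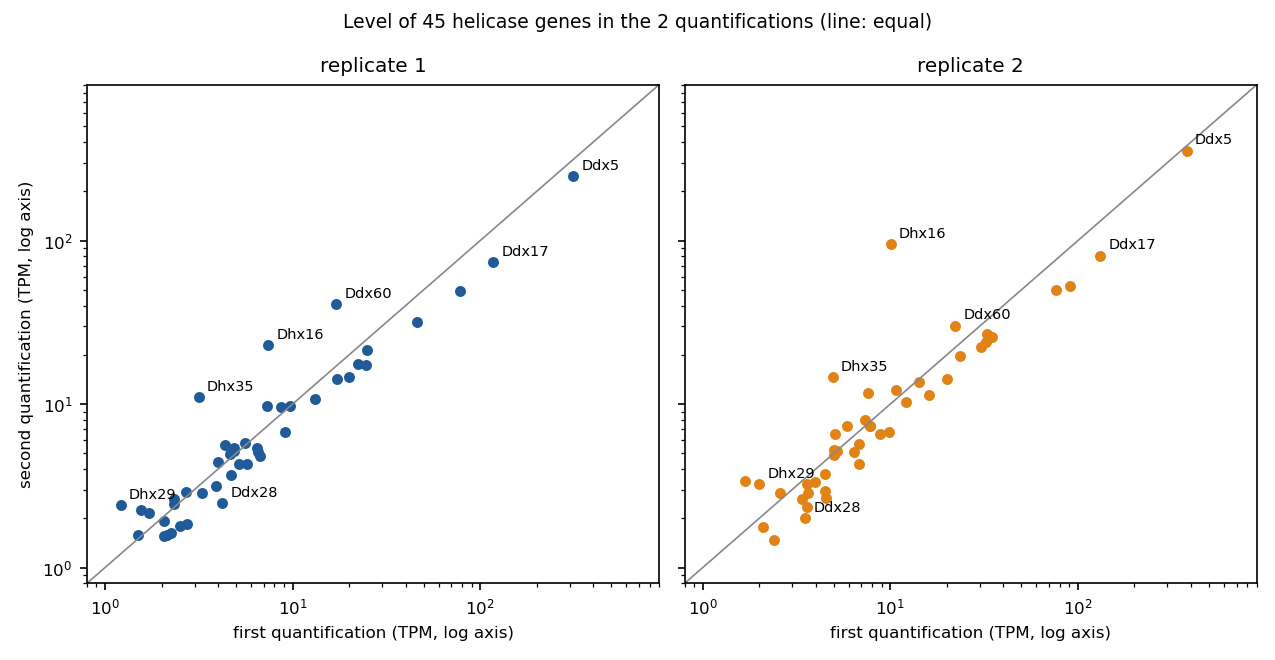
Level in TPM of the 45 helicase genes detected in both libraries, first quantification (horizontal log axis) against second (vertical log axis), for replicate 1 (left) and replicate 2 (right); the line marks equal values. Most genes lie along the line, with Dhx16, Dhx35 and Ddx60 above it, and Dhx16 reaches 94.99 TPM in replicate 2.

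Some introns of helicase genes hold loci annotated as genes of their own. The annotation has 4 loci of its provisional class TEC on the same strand inside introns of Ddx6, Ddx24 and Dhx15, and these were picked out after their values were seen. E030022I16Rik, at chr9:44618253-44621018 in Ddx6, was at 10.03 and 21 TPM with 890 and 926 counts, a log2 ratio of 0.63. Gm47260, at chr12:103412492-103415596 in Ddx24, was at 8.63 and 19.00 TPM with 868 and 949 counts, a log2 ratio of 0.70. Gm47234 in Ddx6 was at 5.64 and 11.13 TPM and Gm43178 in Dhx15 at 2.74 and 4.49 TPM. All 4 were higher in replicate 2 in scaled counts, with log2 ratios of 0.28 to 0.70. The share of such loci higher in replicate 2 over all genes was not computed. The host genes had ratios of 0.03 for Ddx6, 0.14 for Ddx24 and 0.30 for Dhx15. Only in Dhx15 was the host gene's ratio as high as that of the locus inside it. Their counts do not enter the values of the host genes.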

How the data were processed

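The authors deposited, for each of 2 libraries, a gene and a transcript table of a first quantification and a transcript table of a second. Per the file headers and accompanying notes, the first used an alignment to mm10 with GENCODE M21; aligner and quantifiers: not given in the sources used here. Estimated counts are unnormalized as deposited. The deposited TPM values are per length over all features. The deposited FPKM values served as an alternative. The bounds the authors deposited around TPM (unit signal) have no stated confidence level; the TPM of Ddx5, Ddx17 and Ddx6 lay above their own upper bound in both libraries, and no interval is printed.

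Computed here: ratios from counts rounded to whole numbers, scaled by TMM (edgeR 4.0.16, R 4.3.3, prior count 2; DESeq2 1.42.0 size factors as an alternative), and shares, sums by gene and 31-base words on the sense strand (Python 3.11.15, pandas 2.3.3, numpy 2.4.6, matplotlib 3.10.9). Features without gene fields (spike-ins, tRNAs) stayed out of all ratios. The ratio step was tested on simulated data. Thresholds were 1 TPM and 1.5-fold. The second quantification's transcripts were summed by gene.

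Members, roles and lists were chosen with earlier results of these data known. Values in each library are given for the 10 highest and 5 lowest members, those beyond 1.5-fold, the 6 highest retained-intron shares, the highest and lowest of each of 10 role groups, and 7 paralogue pairs. Of the symbols in 7 partner lists, Skiv2l2 and Nup42 were not matched. Protein identity of the pairs was not analysed here.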

Additional observations from a re-analysis of the deposited data

How the results depend on the processing

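Over 23 results and 45 alternatives, 22 values stayed within their spread or within 1.5 times the count, 21 moved and 2 turned direction. Members detected numbered 22 at 5 TPM, and 45 without replicate 1 and 45 without replicate 2. Their median level was 7.545 in FPKM and 28.8 when TPM was rescaled to protein-coding genes, and 4.67 to 6.43 TPM with 1 replicate left out. The median library ratio (log2) was 0.10 from centred TPM, 0.095 from the second quantification and 0.011 above 5 TPM. The number beyond 1.5-fold was 2 from centred TPM, 5 from the second quantification, 2 with no minimum and 0 above 5 TPM. The median retained-intron share was 47.6% in the second transcript table, 42.8% above 5 TPM and 35.2% to 39.5% with 1 replicate left out. Chosen after seeing the data, it was 26.8% without members that another gene overlaps and 19.5% of estimated counts. Most abundant transcripts not of protein-coding type numbered 17 in the second table. Also chosen after seeing the data, the second quantification gave mean ratios of 3.87 (2.79 in the first) for Ddx5 over Ddx17, 11.0 (14.5) for Ddx39b over Ddx39, 4.24 (3.52) for Dhx9 over Dhx36 and 8.66 (1.41) for Dhx16 over Dhx8. It turned Ddx19b over Ddx19a to 0.955 (1.05) and Ddx10 over Ddx18 to 0.792 (1.04), and put 4 SMN partners at 1 TPM (2). Members beyond 2-fold between quantifications numbered 3 to 4 with 1 replicate left out (2 with both). The cause of these moves was not tested. No paired analysis was possible because there is 1 group. Depth limits mainly Ddx43 and Ddx25, at 0 to 3 counts.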
